A study of Mus musculus with 5 samples.

Results

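Gem, its RGK relatives Rrad, Rem1 and Rem2, and the calcium channel subunits Cacnb1, Cacnb2, Cacnb3, Cacnb4 and Cacna1c were followed in whole colon of mice given an IL-11 receptor agonist. These 9 genes are among 17945 genes with a symbol, within 32917 features tested. Whole-colon RNA of wild-type C57BL/B6 mice was measured on 5 single-colour Agilent arrays, with 2 Control mice and 3 mice killed 3 hr after an intravenous dose of NT-3N. NT-3N is a modified human IL-11, and the legend of the study calls the controls untreated, so the injection and the agonist cannot be told apart. The labels give no age, and the legend gives 8 weeks for the injected mice. As far as the labels say, each array holds 1 mouse, and the 5 arrays share a slide and a scan time.

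The members were chosen by what was known of these data: Gem was picked because its signal was among the features called higher in NT-3N, and the other 8 genes were added by gene family. The values of Gem in this contrast are therefore a description, with no test. The values of the others come from the same arrays and are given as the fit returned them.

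RGK proteins are small GTPases of the Ras superfamily. They bind the beta subunits of voltage-gated calcium channels and lower the current through the channel. A channel is built from a pore-forming alpha1 subunit with a beta subunit on its inner face, and in the gut wall the L-type channel of Cacna1c carries the calcium that drives contraction of smooth muscle. IL-11 binds its receptor chain and gp130 and activates the transcription factor STAT3.

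The share of probes well above background ran from 70.6% to 72.9% over the arrays. Across features, the Control arrays correlated at 0.984 with each other, and Control with NT-3N arrays at 0.980 to 0.989. The NT-3N arrays correlated at 0.986 to 0.992, so the 2 Control arrays were less alike than any pair of NT-3N arrays. Smooth muscle and epithelial markers were well above background on all 5 arrays. Of 4 neutrophil markers 2 were tested, and neither was well above background in Control.

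Gem, first described as a gene that mitogens induce in T cells, was higher in every NT-3N mouse. Its normalized log2 signal was 8.35 and 8.47 in the Control mice and 10.48, 10.50 and 10.66 in the NT-3N mice. The lowest NT-3N value lay far above the higher Control value, and the mice of each group differed little. On the scale of the scanner, before any scaling between arrays, the same spot read 296 and 364 in Control and 1246, 1680.4 and 1739.6 in NT-3N. The means were 8.41 ± 0.087 (SD, n = 2) and 10.55 ± 0.10 (SD, n = 3), which differ by 2.14 log2 units (SE 0.11). This is a 4.41-fold higher signal, with a 95% interval from 3.66 to 5.30. That interval makes no allowance for the choice of Gem by this same difference. The array holds 1 probe for Gem, in 1 spot, so no further probe bears on this value. Without NT-3N replicate 3 the difference was 2.08 and Gem was no longer called.

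**Figure D1:**
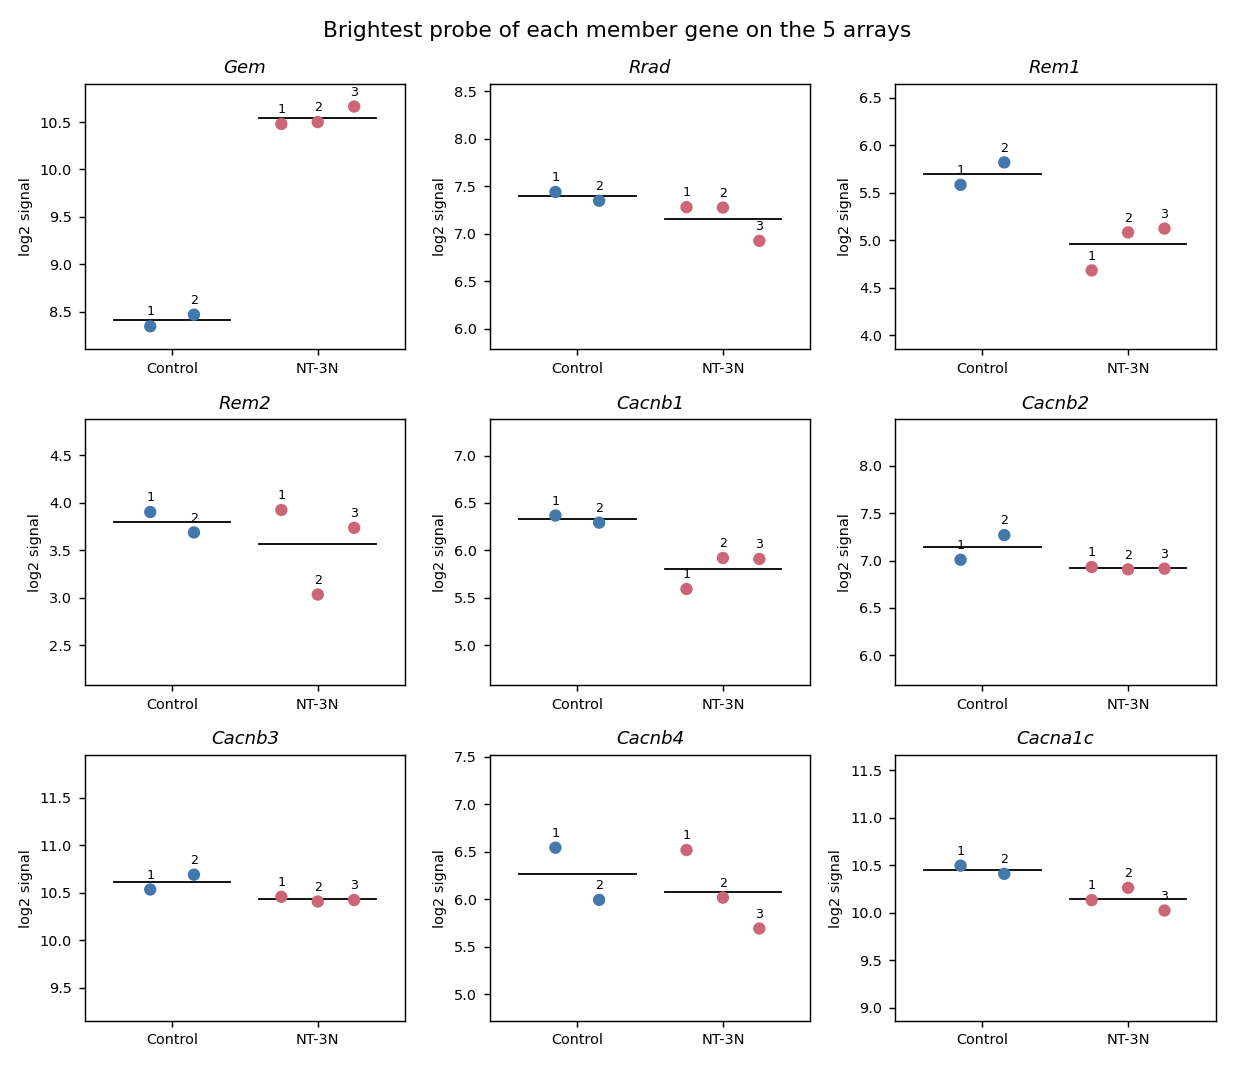
Normalized log2 signal of the brightest probe of each of the 9 genes, with 1 point per mouse (numbered by replicate, spread sideways for clarity), Control in blue and NT-3N in red, and the group mean as a line. Each vertical axis spans the same number of log2 units around its own middle; the NT-3N points of Gem, at 10.48 to 10.66, lie above those of Control, and those of the 8 other genes lie level with or below them.

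The other RGK genes had values below those of Control on average. Rrad, which encodes Rad and is best known from heart and skeletal muscle, read 7.44 and 7.35 in Control and 7.28, 7.28 and 6.92 in NT-3N. All 3 NT-3N values lay below the Control values, 2 of them narrowly. The difference was -0.23 (SE 0.16), and its 95% interval, from -0.63 to 0.16, does not reach the size seen for Gem. Without NT-3N replicate 3 it was -0.12.

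Rem1, a relative first described in heart, read 5.58 and 5.82 in Control and 4.68, 5.08 and 5.12 in NT-3N. All NT-3N values lay below the Control values, with a difference of -0.74 on the log2 scale (SE 0.24). That is a 1.67-fold lower signal. On the scale of the scanner Rem1 read 45.0 and 57.8 in Control and 23.7, 37.3 and 35.4 in NT-3N. With normexp background correction on spot medians the log2 difference of Rem1 was -0.32. That setting adds an offset of 50 to each spot, which by itself makes the log2 differences of dim probes smaller. Its limma p was 0.019 unadjusted and 0.418 adjusted over all features, so it was not called. Rem2, known mainly from neurons, was dim, and was well above background on both Control arrays but on 2 of 3 NT-3N arrays. It read 3.90 and 3.69 in Control and 3.93, 3.03 and 3.74 in NT-3N, where the groups overlapped and the interval of the log2 fold change ran from -1.19 to 0.73. Without NT-3N replicate 2 its sign turned, to 0.04, and the difference was -0.12 when Control replicate 1 was left out and -0.41 when NT-3N replicate 1 was.

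The beta subunits, to which RGK proteins bind, had log2 fold changes between -0.52 and -0.18. Cacnb1, the beta subunit of the skeletal muscle channel, read 6.37 and 6.29 in Control and 5.59, 5.92 and 5.91 in NT-3N. All 3 NT-3N values were lower (log2 difference -0.52, SE 0.19, adjusted p = 0.466 by limma), and with normexp the difference was -0.31. Cacnb2, a beta subunit of heart and smooth muscle, read 7.01 and 7.27 in Control and 6.93, 6.91 and 6.91 in NT-3N, where the gap between the groups was smaller than that between the Control mice. The log2 difference was -0.22 (SE 0.15), and leaving out Control replicate 2 made it -0.09, and leaving out replicate 1 of that group -0.35. A second Cacnb2 probe read 4.94 and 4.93 in Control and 4.51, 4.21 and 4.57 in NT-3N, a difference of -0.50 (SE 0.25).

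Cacnb3, a beta subunit of smooth muscle and brain, read 10.53 and 10.69 in Control and 10.46, 10.41 and 10.42 in NT-3N. The groups did not overlap, and the log2 difference was -0.18 (SE 0.096), whose interval ran from -0.41 to 0.05. Without Control replicate 2 it was -0.10. Cacnb4, a subunit found mostly in neurons, read 6.54 and 5.99 in Control and 6.52, 6.02 and 5.69 in NT-3N, and the groups overlapped. The log2 difference was -0.19 (SE 0.30), but without single arrays it ran from -0.47 to 0.08, the lowest when Control replicate 2 was left out and the highest when Control replicate 1 was. It was -0.41 when NT-3N replicate 1 was left out and -5e-04 when NT-3N replicate 3 was. Another Cacnb4 probe was well above background on 1 of the 5 arrays and was not tested.

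Cacna1c, the pore of the L-type channel, was measured by 4 probes. Its brightest read 10.50 and 10.41 in Control and 10.13, 10.26 and 10.02 in NT-3N. These values did not overlap, and the log2 difference was -0.31 (SE 0.11, interval from -0.58 to -0.05). The limma p was 0.027 unadjusted and 0.457 adjusted over all features. The other 3 probes had log2 fold changes of -0.25, -0.11 and -0.01 with standard errors of 0.25, 0.18 and 0.37, and on each the groups overlapped. The probe at -0.01 was dim, at 3.38 to 4.14 over the arrays, and was well above background on 2 of 3 NT-3N arrays. With the mean of the 4 probes the log2 fold change of Cacna1c was -0.17. The 95% intervals of the other 3 probes ran from -0.86 to 0.36, -0.54 to 0.32 and -0.92 to 0.89. All of them include -0.31, so these values cannot decide whether the size of the difference depended on the probe.

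The region before the transcription start could be read for 7 of the 9 genes, in 14 windows from RefSeq (GRCm38.p6), and not for Gem or Rrad. The windows hold 250 bases before a start and 50 after it. A STAT-type core, TTCNNNGAA, which reads the same on both strands, was found in 1 of the 14 windows, against 8.3% of 32851 windows of all genes. The stricter form TTCCNGGAA, which is part of the first, was found in 0 member windows against 1.15% of all, and the cAMP response element TGACGTCA in 0 against 1.79%. The match lay before 1 of the alternative starts of Cacna1c, between 115 and 107 bases upstream, and the 250 upstream bases of that window are shown with it in capitals. Those of Rem1, the RGK relative with the largest difference after Gem, are shown for comparison and hold no such letters.

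Cacna1c, chr6:118757975-118758224, minus strand: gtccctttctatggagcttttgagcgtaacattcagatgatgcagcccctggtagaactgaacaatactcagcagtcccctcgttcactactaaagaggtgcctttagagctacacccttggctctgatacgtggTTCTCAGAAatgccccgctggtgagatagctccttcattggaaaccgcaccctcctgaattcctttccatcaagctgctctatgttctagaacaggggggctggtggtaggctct

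Rem1, chr2:152626758-152627007, plus strand: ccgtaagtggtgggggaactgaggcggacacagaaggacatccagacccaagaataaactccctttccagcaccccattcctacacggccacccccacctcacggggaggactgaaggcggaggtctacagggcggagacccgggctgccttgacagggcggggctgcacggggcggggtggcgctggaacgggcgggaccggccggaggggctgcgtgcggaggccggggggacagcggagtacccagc

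**Figure D2:**
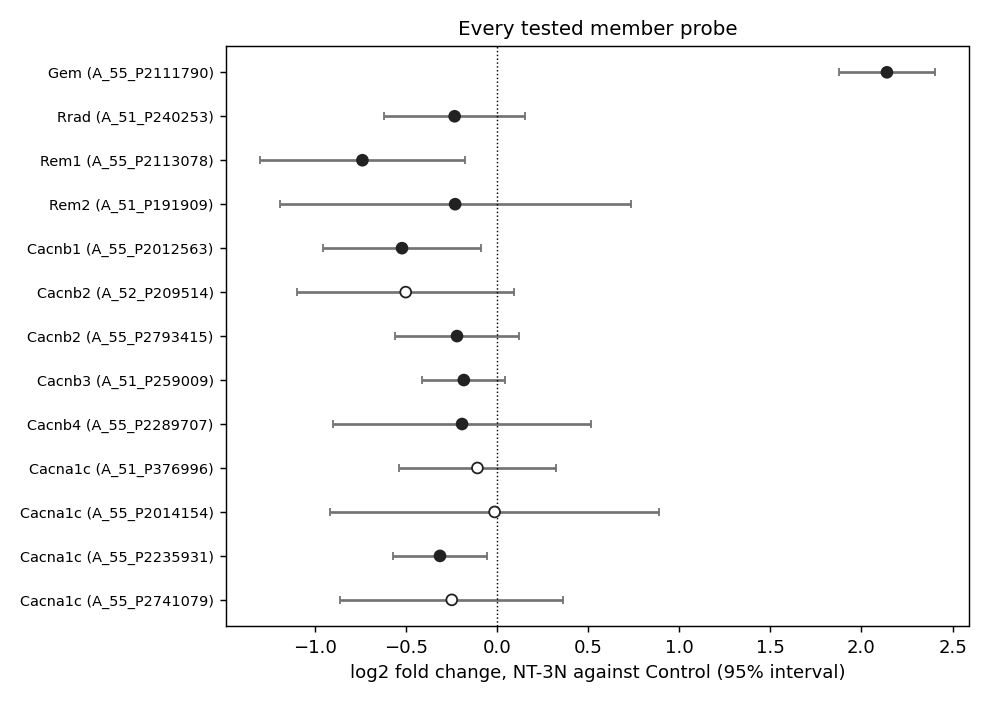
Log2 fold change of NT-3N against Control for each of the 13 member probes tested, with its 95% interval from a limma fit over all 41590 probes; filled points are the brightest probe of a gene and open points its further probes. Gem stands at 2.14, and every other probe has an estimate below 0, most with an interval that includes it.

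Of the 9 genes, limma called 1 higher, Gem, by which the set was chosen, against 0.125% of all features. It called 0 lower, against 0.0182% of all features, and at an unadjusted p under 0.05 the lower genes numbered 3, namely Rem1, Cacnb1 and Cacna1c, against 4.67%. The higher genes at that level numbered 1, Gem, against 4.95%. The groups did not overlap for Gem, as for 13.5% of all features in that direction, and for 6 genes in the lower direction, against 14.8%. All 8 genes other than Gem had a log2 fold change below 0, with a median of -0.23, where the median of all features was -0.02 and 53.6% were below 0. For these 8 genes the adjusted p lay between 0.418 and 0.874, so none of them passed the threshold of 0.05.

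Markers of smooth muscle, the tissue in which Cacna1c, Cacnb2 and Cacnb3 are well known, had lower summed signal on the same arrays. The summed normalized signal of 8 such markers was 475747 and 491888 in Control and 346531, 435857 and 405267 in NT-3N, so the groups did not overlap. All 8 had a log2 fold change below 0, with a median of -0.29, and limma called 0 of them over all features. At an unadjusted p under 0.05 the lower markers numbered 3, against 4.67% of all features. The single markers ranged from -0.88 to -0.22. In a bulk sample fewer muscle cells and less RNA per cell cannot be told apart, and the part of muscle content in the channel values was not tested. Gem was higher on the same NT-3N arrays, and its relation to muscle content was not tested either.

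Markers of other cell types were read beside Gem and the channel genes. The 10 enteric neuron markers had a median log2 fold change of -0.14, with 9 below 0 and 0 called, and their summed signal was 39297 to 41089 in Control and 33316 to 37868 in NT-3N. Taken singly, 1 of the 10, Elavl4, did not overlap between the groups and was lower, against 14.8% of all features in that direction. Snap25, the brightest and so the largest part of the sum, overlapped, at 14.66 to 14.83 in Control and 14.42 to 14.86 in NT-3N. Fibroblast markers, with 0 of 6 called and a median of 0.10, summed to 44103 to 50832 in Control and 45120 to 66304 in NT-3N. Of these, Pdpn, which encodes podoplanin, was higher in every NT-3N mouse, as Gem was, at 10.33 and 10.66 in Control and 11.67, 12.13 and 12.16 in NT-3N (log2 difference 1.49, SE 0.18, adjusted p = 0.0672 by limma). Dcn, which encodes decorin, did not overlap either (0.32, SE 0.13, adjusted p = 0.502 by limma). These are 2 of 6 markers, against 13.5% of all features with no overlap in the higher direction. The remaining fibroblast markers, Pdgfra, Lum, Col1a1 and Col3a1, overlapped between the groups, with log2 differences of 0.12, 0.087, 0.0072 and -1.3e-04. Endothelial markers, with 0 of 5 called, summed to 1372 to 1384 in Control and 1318 to 1556 in NT-3N. All of these markers were well above background on every array. The 2 tested neutrophil markers, S100a8 and S100a9, summed to 9 and 9 in Control, where they were not well above background, and to 456, 95 and 136 in NT-3N. Replicate 1 was the highest NT-3N mouse for them, and they passed the filter through the NT-3N arrays only. The 4 B cell markers summed to 899 in Control replicate 2 and to 3572 to 4154 on the other arrays. Ms4a1, which encodes CD20, differed from this sum and was higher in every NT-3N mouse, as Gem was, at 4.95 and 6.53 in Control and 9.54, 9.13 and 9.51 in NT-3N (log2 difference 3.65, SE 0.43, adjusted p = 0.0595 by limma). The other 3 B cell markers overlapped between the groups and were lowest in Control replicate 2. Of the 7 tested skeletal muscle markers limma called 0, as of 3 for interstitial cells of Cajal, 6 for epithelium, and 4 each for B cells, enteroendocrine cells, T cells and macrophages, while 1 of 4 enteric glia markers, Gfap, was called higher. The markers of interstitial cells of Cajal had a median log2 fold change of -0.39, with 2 of 3 below 0. Their summed signal overlapped, at 18835 to 20789 in Control and 16345 to 26477 in NT-3N. Skeletal muscle markers had a median of -0.09, with 4 of 7 below 0. The part of any of these cell types in the Gem value was not tested.

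**Figure D3:**
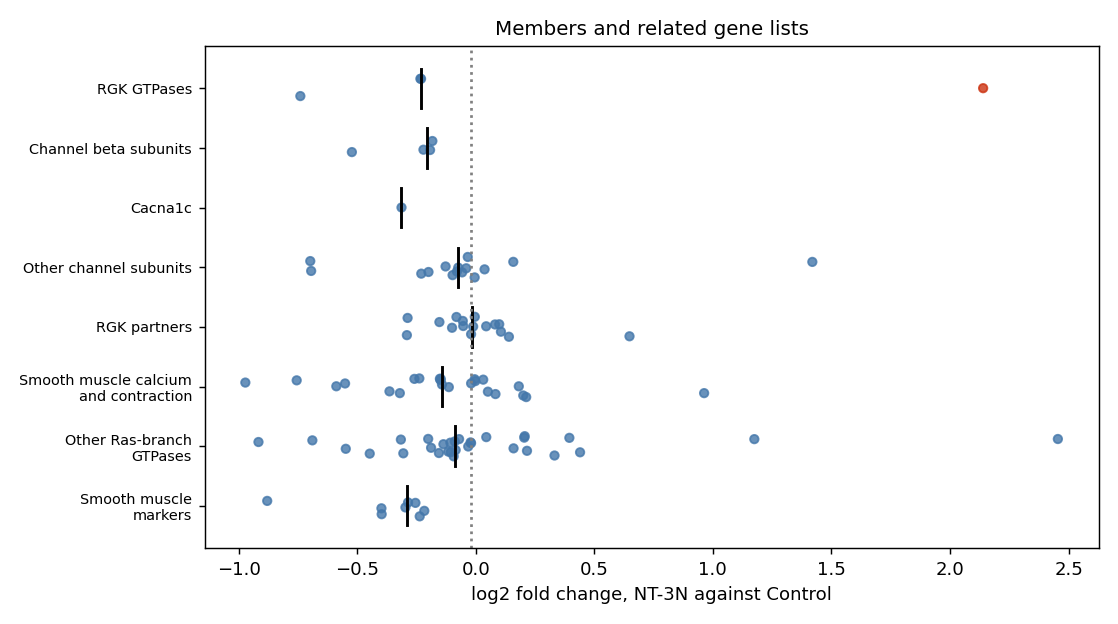
Log2 fold change of NT-3N against Control for each tested gene of the member families, of 4 related lists and of the smooth muscle markers, with 1 point per gene, the list median as a black bar and the median of all features, -0.02, as a dotted line. Gem is the only red point, a gene called at an adjusted p under 0.05; Rrad and Rem2, both at -0.23, overlie each other, and the smooth muscle markers all lie below 0.

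Other subunits of voltage-gated calcium channels were not called. Of 21 listed genes 15 were tested, with a median log2 fold change of -0.07, 3 above 0 and 12 below. limma called 0 of them. At an unadjusted p under 0.05 there was 1 lower, against 4.67% of all features, namely Cacna1g, the pore of a T-type channel. It read 5.97 and 6.33 in Control and 5.14, 5.71 and 5.50 in NT-3N, a log2 difference of -0.70 (SE 0.24, adjusted p = 0.457 by limma), which was -0.37 with normexp. Cacna1e, the pore of the R-type channel, had -0.69 with a standard error of 0.36 (-0.23 with normexp), and was well above background on 1 of 3 NT-3N arrays. Cacna2d4, an accessory subunit known from the retina, had 1.42 with a standard error of 0.77 and was well above background on 3 of 5 arrays. Its difference rested on the Control arrays, at 0.30 when replicate 1 was left out and 2.54 when replicate 2 was, and it was 0.27 with normexp.

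Cacna2d1, the alpha2delta subunit of muscle channels, had a log2 difference of 0.04 with an interval from -0.20 to 0.27. Cacna1d, the pore of another L-type channel, had -0.13 (SE 0.31). The sign of both depended on the setting and on single arrays.

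The 16 partners and effectors of RGK proteins had a median log2 fold change of -0.02, with 6 above 0 and 10 below, and limma called 0. Camk2g, the gamma chain of the calmodulin-dependent kinase CaMKII, had the largest difference in the list. It read 11.86 and 11.91 in Control and 12.28, 12.67 and 12.65 in NT-3N, a log2 difference of 0.65 (SE 0.13, adjusted p = 0.214 by limma). Without NT-3N replicate 1 the limma adjusted p was 0.0395. Sfn and Ywhag, which encode 14-3-3 proteins, both had -0.29 with standard errors of 0.092 and 0.15, and Ywhag had -0.17 without NT-3N replicate 1.

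The genes of calcium handling and contraction in smooth muscle had a median log2 fold change of -0.14. Of 24 listed 23 were tested, with 7 above 0 and 16 below, and limma called 0. At an unadjusted p under 0.05 there were 2 higher and 7 lower, against 4.95% and 4.67% of all features. Pln, which encodes phospholamban, an inhibitor of the calcium pump of the sarcoplasmic reticulum, read 7.33 and 7.80 in Control and 6.42, 6.50 and 6.87 in NT-3N. The log2 difference was -0.97 (SE 0.21, adjusted p = 0.240 by limma), and every NT-3N mouse lay below both Control mice. Sln, which encodes sarcolipin, another inhibitor of that pump, had -0.76 with a standard error of 0.20, and -0.31 with normexp. Atp2b4, a calcium pump of the plasma membrane, had -0.59 with a standard error of 0.13.

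Other small GTPases of the Ras branch were not called either. Of 31 listed 30 were tested, with 10 above 0 and 20 below, a median of -0.09, and limma called 0. At an unadjusted p under 0.05 there were 4 higher and 1 lower, against 4.95% and 4.67% of all features. Rasl11a, a Ras-like GTPase, read 4.54 and 5.45 in Control and 6.56, 7.86 and 7.92 in NT-3N. The groups did not overlap, and the log2 fold change was 2.45 with SE 0.48 and an adjusted p of 0.194 by limma. With normexp it was 1.32. Rasl12, another Ras-like GTPase, read 8.83 and 8.63 in Control and 9.31, 10.30 and 10.11 in NT-3N, a log2 difference of 1.17 (SE 0.29, adjusted p = 0.289 by limma), which was 0.56 with the mean of its probes. For both, replicate 1 was the lowest of the NT-3N mice, and without it the adjusted p was 0.0496 for Rasl11a and 0.0294 for Rasl12. Diras2, a GTPase studied in brain, was lower in every NT-3N mouse, with a log2 difference of -0.92 (SE 0.19, adjusted p = 0.216 by limma).

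The genes whose values over the 5 arrays lay nearest to those of Gem were named by Euclidean distance after each gene was centred on its mean, among 16736 other genes well above background on all arrays. They were Ch25h, an enzyme that makes an oxysterol, at a distance of 0.12, Osmr, a receptor subunit for oncostatin M, at 0.24, Ctps, an enzyme of pyrimidine synthesis, at 0.30, Lrg1, a secreted glycoprotein, at 0.31, and Dnah17, a dynein heavy chain, at 0.40. Their Pearson correlations with Gem over the 5 arrays were between 0.986 and 0.9995. With 5 arrays that share 1 slide and differ mainly by group for these genes, such values describe the step between the groups, and their log2 fold changes of 1.92 to 2.11 are near that of Gem by the way they were chosen. With normexp that of Dnah17 was 1.14. The closest, Ch25h, read 7.30 and 7.42 in Control and 9.31, 9.34 and 9.58 in NT-3N. The order of the 5 mice was that of Gem, a likeness that goes with its choice by distance over these values.

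**Figure D4:**
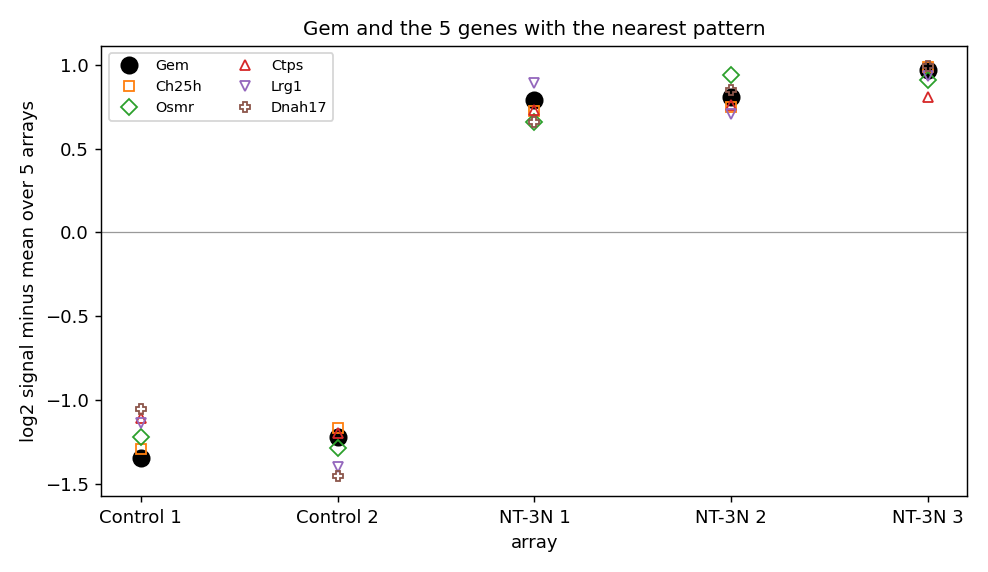
Log2 signal minus its mean over the 5 arrays for Gem (filled) and the 5 nearest genes (open), by array. All 6 genes sit below 0 in both Control mice and above 0 in the 3 NT-3N mice.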

How the data were processed

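Whole-colon RNA was hybridised to 1 Cy3 array per mouse. The authors read the spots with Agilent Feature Extraction 11.0.1.1, and the deposited scanner files give the processed signal of each spot as an intensity, with flags, not scaled between arrays. The authors also deposited log2 values, quantile-normalized, for 37380 probes, which tracked those used here (correlation of at least 0.99998) and served as an alternative only (each column has a median of 8.47).

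Control spots and outlier spots (69 to 184 per array) were left out, the processed signal was log2-transformed and the arrays quantile-normalized. Features well above background on at least 2 arrays were kept. Accessions gave a RefSeq symbol (GRCm38.p6) to 32994 of 56605 probes; no coordinates of the array are given, since its header names another build. A gene was represented by its brightest probe. NT-3N was set against Control in R 4.3.3 by limma 3.58.1 (lmFit, then eBayes with its prior following intensity), and two-sided p-values were adjusted by Benjamini-Hochberg across the 32917 features, with 0.05 as threshold. The study used a local-pooled-error test, run here as an alternative. An exact permutation test of 5 arrays allows no p under 0.1. Precision is limited by how few arrays there are. The p-values rest on the spread between these mice, drawn by eBayes towards that of all features at like intensity. Levels of different probes cannot be compared.

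The members and lists were chosen with earlier results of these data known. Named were all members, of each related list the called genes or else the 3 with the smallest unadjusted p, with Cacna1d and Cacna2d1, and the 5 genes nearest to Gem. Pdpn, Dcn, Ms4a1 and Gfap were named after their values were seen. One item is not reported here. Alternatives were other scalings, background correction (normexp with an offset of 50), filters, probe rules, variance models and leaving out each array. The tests were checked on simulated data. The further marker lists were those of skeletal muscle, enteric glia, interstitial cells of Cajal, epithelium, enteroendocrine cells, T cells and macrophages.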

Additional observations from a re-analysis of the deposited data

How the results depend on the processing

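The log2 fold change of Gem stayed between 1.96 (normexp on spot medians) and 2.20 over 18 alternatives, and Gem was called in 14 of them. It was not called with no filter on dim probes (2.14, adjusted p = 0.0548), with no intensity trend (2.14, 0.0569) or without NT-3N replicate 3 (2.08, 0.0776), so that 0 members were called. Leaving out single arrays gave 2.08 to 2.20. Gem was picked by its call on these same arrays. The counts of calls and the p-values of Gem therefore describe the settings and lend its value no support. The labels name no pairs, so the replicate numbers were not taken as such. Deviations of same-numbered mice correlated at 0.13 and 0.036 over 2 pairs. These values cannot decide the matter, since the deviations of the 2 Control mice mirror each other. With the replicate block, in which NT-3N replicate 3 has no partner, Gem had 2.08 and a limma adjusted p of 0.346, and 0 members were called. No other member was called in any alternative run. Rem2 turned to 0.0352 without NT-3N replicate 2, in a range from -0.41 without each array, and Cacnb4 to 0.0825 without Control replicate 1, in a range from -0.47. Cacna1d turned to 0.0488 with array quality weights, 0.11 with the local-pooled-error test and as far as 0.15 (from -0.28) without single arrays. Cacna2d1 turned to -0.0047 with the replicate block, -0.0331 with the mean of probes and -4e-04 with the local-pooled-error test, and ranged from -0.0047 to 0.0699 without single arrays. Partners of RGK GTPases called higher numbered 1 (Camk2g) with array quality weights and with the local-pooled-error test, and 0 to 1 without each array; Ras-branch GTPases called higher numbered 1 and 2, and 0 to 2. Over all features, the 41 higher and 6 lower calls ranged from 0 to 190 and from 0 to 155; the higher calls numbered 0 without NT-3N replicate 3, 9 without NT-3N replicate 2 and 114 without Control replicate 2. Why these values changed was not tested. The slide and scan time were shared by all arrays, and signal near background limits Rem2, the second Cacnb4 probe and the dimmest Cacna1c probe.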
